A study of Mus musculus with 11 samples.

Results

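The *Ankrd13* family of ankyrin repeat genes comprised 4 of the 54146 genes in the deposited tables: *Ankrd13a*, *Ankrd13b*, *Ankrd13c* and *Ankrd13d*. The family was selected because *Ankrd13a* was nearly lost in embryos without PRDM10, a DNA-binding zinc finger protein, so the level of *Ankrd13a* in mutants and controls is described here without a test. Its 3 paralogs entered by name, and the question was whether any of them was higher in mutants. Single 8-cell stage embryos of the C57BL/6 strain were collected at E2.5 from the oviducts of naturally mated *Prdm10*Δ/+ females crossed to *Prdm10*Δ/+ males, so every mother was heterozygous. The 6 controls were *Prdm10* WT/HET, that is +/+ or Δ/+ without a split in the labels, and the 5 mutants were *Prdm10* KO (Δ/Δ). Embryos were assigned by qRT-PCR of the exon that the Δ allele lacks. Batch 1 (16 cycles of PCR pre-amplification) held 3 controls and 2 mutants, and batch 2 (13 cycles) held 3 of each. Litters are not given in the labels, so p-values measure the spread between these embryos.

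Ankyrin repeats are short helical units that bind other proteins. ANKRD13A, ANKRD13B and ANKRD13D also carry ubiquitin-interacting motifs near the C-terminus, through which they bind ubiquitin chains on internalised receptors such as EGFR, at the plasma membrane and on endosomes. ANKRD13A has also been linked to VCP, an ATPase that extracts ubiquitinated proteins from complexes. ANKRD13C lacks these motifs and has been described at the endoplasmic reticulum, where it acts on newly made G protein-coupled receptors.

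The coding sequences of the members were compared. Below are 30 bases from the region that held the longest exact matches between *Ankrd13a*, *Ankrd13b* and *Ankrd13d*, shown because it is where these paralogs are most alike. The match of *Ankrd13b* and *Ankrd13d* runs on past the bases shown. It was read from GENCODE transcripts on GRCm38, 5′ to 3′ along the coding strand, and lies in a coding exon in the latter part of each reading frame. The 2 letters that differ between the genes are in capitals.
*Ankrd13a*, chr5:114801770-114801799, plus strand: tgcAgtttgccatccagcagagcctgctGg
*Ankrd13b*, chr11:77472472-77472501, minus strand: tgcGgtttgccatccagcagagcctgctTg
*Ankrd13d*, chr19:4270989-4271018, minus strand: tgcAgtttgccatccagcagagcctgctTg

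The longest identical run of coding bases was 30 between *Ankrd13b* and *Ankrd13d*, 28 between *Ankrd13a* and *Ankrd13d* and 24 between *Ankrd13a* and *Ankrd13b*. Against *Ankrd13c*, the longest run of the other members was 11 to 13 bases. In a global alignment of the longest reading frames, 67.7% of the aligned bases were identical between *Ankrd13a* and *Ankrd13b* and between *Ankrd13a* and *Ankrd13d*, and 72.6% between *Ankrd13b* and *Ankrd13d*. Against *Ankrd13c*, the identity was 61.6% to 61.8%. The longest frames encoded 588 residues in *Ankrd13a*, 696 in *Ankrd13b*, 541 in *Ankrd13c* and 605 in *Ankrd13d*.

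Libraries held 3534735 to 8265840 expected counts, the RSEM estimate of reads per gene. No molecular identifiers were used, so limits from counts cover counting error only. *Prdm10* itself had 11.1 to 24.8 TPM (a level per length, scaled to the same total in each library) in controls and 4.88 to 8.16 TPM in mutants, and these ranges did not overlap. Its normalised count was not called lower (log2 fold change -0.66 ± 0.26 (SE), DESeq2 adjusted p = 0.215), and the deletion removes only part of the transcript. It averaged 236 ± 85.2 normalised counts in the 6 controls and 151 ± 39.4 in the 5 mutants (± SD), while its effective length, by which counts are divided to give TPM, was 2565 to 3357 bases in controls and 4348 to 5051 bases in mutants. The 6 markers of the 8-cell embryo were present in all libraries, with summed TPM of 4803 to 6245 in controls and 5062 to 5885 in mutants. *Dppa3* made up most of these sums, with a median of 5210 TPM in controls and 4916 TPM in mutants, so they say little about the other markers. Among these 6, 5 had an unadjusted DESeq2 p under 0.05 (11.9% of all genes) and 1 was called (1.45% of all genes). Their log2 fold change was above 0 in 4 (49.8% of all genes) and below 0 in 2 (50.2%). *Klf5*, a transcription factor, rose in mutants (log2 fold change 0.84 ± 0.14 (SE), DESeq2 adjusted p = 1.07e-06). *Nanog*, a pluripotency factor, was on the other side of 0 (-1.05 ± 0.38 (SE), adjusted p = 0.167). The 6 oocyte markers summed to 31.4 to 114 TPM in controls and 45.2 to 76.7 TPM in mutants. The 7 cumulus and granulosa cell markers summed to at most 1.28 TPM in controls and 8.56 TPM in mutants, with *Has2* and *Ptx3* at 0 throughout. The 6 oviduct and blood markers summed to 0.81 to 35.2 TPM in controls and 0.56 to 32.2 TPM in mutants, and *Ovgp1*, a secreted oviduct glycoprotein, reached 30.1 TPM. The part of these other cells in the results was not tested.

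*Ankrd13c* was the most abundant member in control embryos, followed by *Ankrd13a*, while *Ankrd13d* and *Ankrd13b* were near the limit of detection. Mean control levels were 50.0 ± 13.1 TPM (SD, n = 6) for *Ankrd13c* and 16.0 ± 5.33 TPM for *Ankrd13a*. They were 0.985 ± 1.29 TPM for *Ankrd13d* and 0.622 ± 0.989 TPM for *Ankrd13b*. The control values of *Ankrd13c* and *Ankrd13a* did not overlap, nor did those of *Ankrd13a* and *Ankrd13d*, whereas those of *Ankrd13d* and *Ankrd13b* did. Only *Ankrd13a* and *Ankrd13c*, 2 of the 4 members, had a mean normalised count above 10, the minimum for a call.

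**Figure D1:**
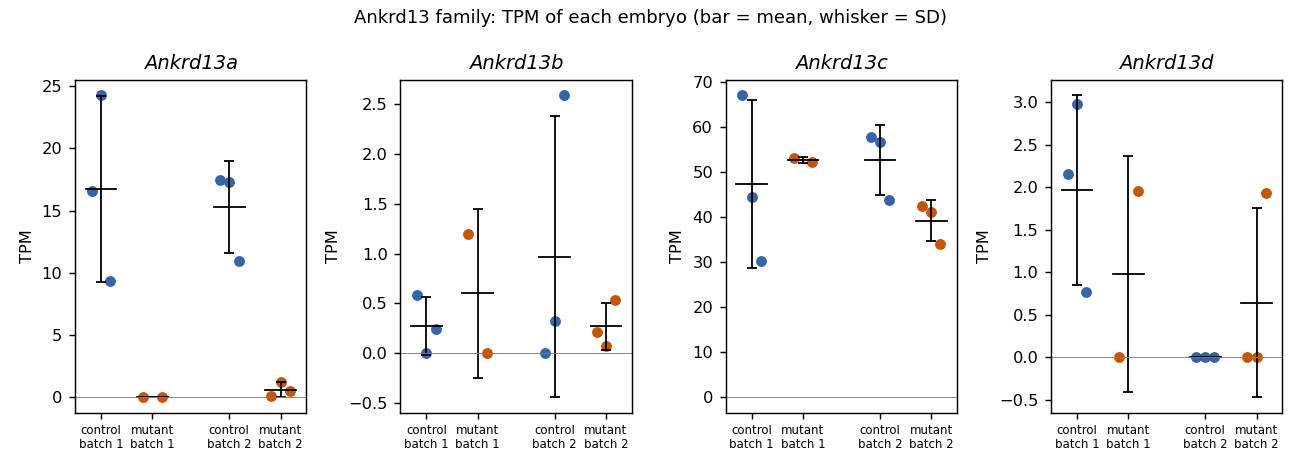
TPM of the 4 *Ankrd13* genes (y axis, own scale per panel) in each embryo, by group and batch (x axis), with points for embryos, bars for means and whiskers for SD. *Ankrd13a* lies at 9.36 to 24.3 TPM in controls and at 0 to 1.28 TPM in mutants, while *Ankrd13c* stays above 30 TPM in every embryo.

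*Ankrd13a* (ENSMUSG00000041870.16, chr5:114774677-114806200, plus strand, GRCm38) encodes the member best known for binding ubiquitinated receptors. In batch 1 its controls had 16.6, 24.3 and 9.36 TPM and both mutants had 0. In batch 2 its controls had 17.5, 17.3 and 10.98 TPM and its mutants had 0.08, 1.28 and 0.54 TPM. Every mutant thus lay below every control in both batches. These were the values that selected the family.

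In expected counts, the controls held 108 to 233 reads and the batch 2 mutants held 1, 17 and 6. The batch 2 mutants averaged 3.70% of the control level in CPM (counts scaled to the library total), a 27.0-fold lower mean. Against a floor of 3 counts in each library, *Ankrd13a* was at least 54.5-fold lower in the batch 1 mutants. Over all embryos the fitted log2 fold change was -5.72 ± 0.58 (SE), a value that rests in part on the 2 mutants at 0. It was -6.75 without mutant replicate 2, -6.37, -6.37 and -6.46 without control replicates 1, 2 and 3 in turn, and -4.72 in batch 2 alone. Mutant replicate 2 held most of the reads that remained, at 7.51% of the mean normalised count of the controls in its batch. This embryo also had the highest summed level of the cumulus and granulosa cell markers (8.56 TPM), mostly from *Inha*, an inhibin subunit gene. *Inha* had 57.2 normalised counts there and 0 in every other embryo. The other markers of that list did not peak there. *Inhbb* had 16.0 there and 49.7 in mutant replicate 5, where *Ankrd13a* was at 0. *Has2*, *Ptx3*, *Tnfaip6*, *Fshr* and *Amh* were at 0 in mutant replicate 2. *Ovgp1* had 52.8, 184 and 368 normalised counts in the batch 2 mutants, and 3.07 and 0 in the batch 1 mutants, where *Ankrd13a* was at 0. In controls *Ovgp1* had 269, 43.4 and 19.4 in batch 2 and 8.20, 1.35 and 0 in batch 1. The part of other cells in the remaining *Ankrd13a* reads was not tested.

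*Ankrd13c* (ENSMUSG00000039988.14, chr3:157947239-158008034, plus strand) encodes the member without ubiquitin-interacting motifs, and was the only paralog above the minimum count for a call. In batch 1 its controls had 67.1, 44.5 and 30.3 TPM and its mutants had 53.1 and 52.1 TPM. The mutants lay within the control range. In batch 2 its controls had 57.7, 56.6 and 43.8 TPM and its mutants had 42.5, 41.1 and 34.1 TPM, so the 3 mutants were each below every control. The same order held for 6.67% of the 10489 genes with a mean normalised count above 10. In normalised counts the batch 2 groups overlapped, whereas 6.34% of genes showed that order on this scale, with 1070, 1011 and 742 in controls and 789, 801 and 634 in mutants.

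*Ankrd13c* was not called higher or lower in mutants. Its log2 fold change was -0.10 ± 0.19 (SE; DESeq2 adjusted p = 0.918, edgeR adjusted p = 0.920), with a 95% interval from -0.46 to 0.26, or 0.725-fold to 1.20-fold. Over all genes, DESeq2 called 151 of 10448 (1.45%) and edgeR called 33 of 10313 (0.32%). In TPM, the difference averaged over the batches was -4.07 (exact permutation within batches, 200 arrangements, two-sided, p = 0.625, adjusted p = 0.800 over 3 paralogs).

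The interval can be set beside the level that was missing. The control mean of *Ankrd13a* was 32.0% of that of *Ankrd13c* in TPM, so an equal number of added *Ankrd13c* transcripts would be a 1.32-fold rise, or 0.40 on the log2 scale. This lies above the upper end of the interval over all embryos. The 0.40 is a ratio of control means in TPM, at 0.44 in batch 1 and 0.37 in batch 2. Its own spread is not part of the interval, which comes from normalised counts, and the difference between them was not tested. In batch 2 alone the log2 fold change of *Ankrd13c* was -0.34, with an interval from -0.85 to 0.17. In batch 1 alone it was 0.21, with an interval from -0.33 to 0.74, which does include a rise of that size. TPM and normalised counts are levels of RNA scaled to each library, not amounts per embryo. In whole embryos, fewer cells that express a gene and less of its RNA per cell cannot be told apart.

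**Figure D2:**
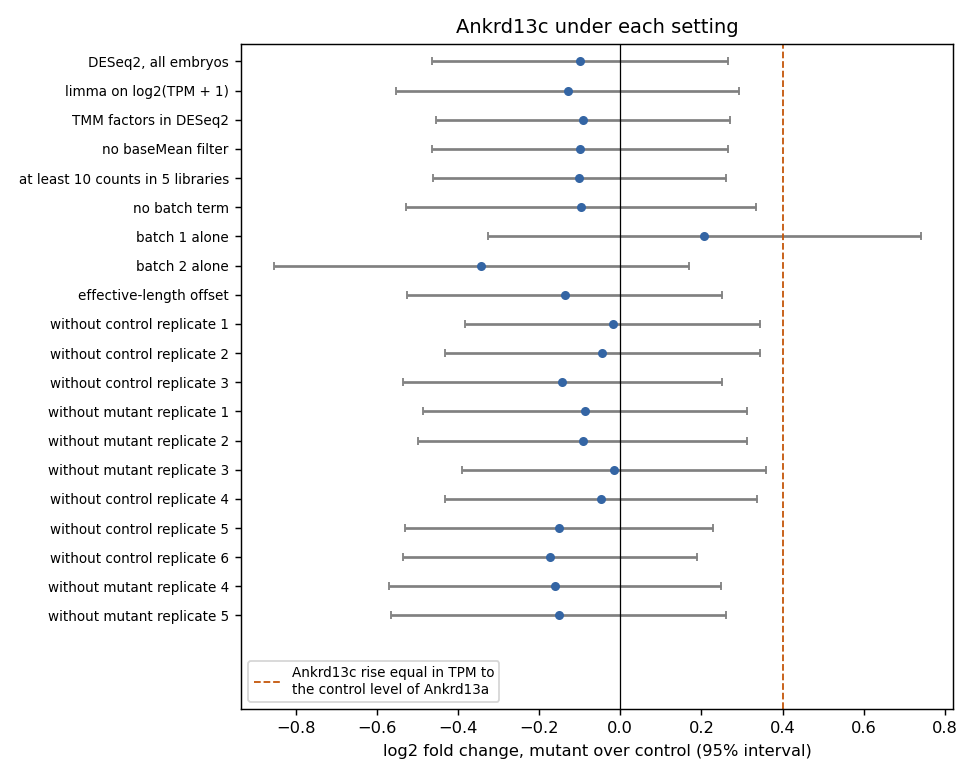
Log2 fold change of *Ankrd13c* (x axis, mutant over control) under each setting that gave a standard error (y axis), with points for estimates, lines for 95% intervals and a dashed line at 0.40, the rise equal in TPM to the control level of *Ankrd13a*. Batch 1 alone is the only setting with an estimate above 0 and the only one whose interval reaches the dashed line. The line is a ratio of control means, drawn without its own spread.

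Whether the difference in *Ankrd13c* depended on the batch was tested directly. The interaction was -0.54 ± 0.36 (SE) on the log2 scale (DESeq2 unadjusted p = 0.127, adjusted p = 1.00, edgeR adjusted p = 1.00), against 4 genes called over the whole table (0.0382%). Between batches, *Ankrd13c* was 0.29 ± 0.19 (SE) higher in batch 2 on the log2 scale (DESeq2 adjusted p = 0.260). It was not called, while 27.9% of genes were. Among controls, *Ankrd13a* averaged 16.7 ± 7.46 TPM in batch 1 and 15.3 ± 3.70 TPM in batch 2 (SD), a difference within the spread between embryos. The effective length was 3025 to 3817 bases for *Ankrd13c* in controls and 3235 to 3776 bases in mutants.

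*Ankrd13b* (ENSMUSG00000037907.16, chr11:77470485-77489678, minus strand) encodes a ubiquitin-binding member, closest in coding sequence to *Ankrd13d*. Its expected counts were 7, 0 and 3 in the batch 1 controls and 14 and 0 in the batch 1 mutants. In batch 2 they were 0, 2 and 15 in controls and 3, 1 and 6 in mutants. The groups overlapped in both batches. Its mean normalised count was 4.50, below the minimum, and its log2 fold change of 0.07 had an interval from -2.59 to 2.72. The direction turned with the setting, at 1.36 in batch 1 alone, -1.04 in batch 2 alone and -1.69 without mutant replicate 4. The TPM difference was -0.187 (exact permutation within batches, two-sided, p = 0.755, adjusted p = 0.800).

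*Ankrd13d* (ENSMUSG00000005986.15, chr19:4270180-4283137, minus strand) encodes the third ubiquitin-binding member. Its expected counts were 9, 4 and 9 in the batch 1 controls and 0 and 6 in the batch 1 mutants. In batch 2 all 3 controls and 2 of the 3 mutants were at 0, and mutant replicate 3 had 6. A count of 0 allowed up to 0.417, 0.849 and 0.472 CPM in the 3 batch 2 controls. The mean normalised count was 3.37 in controls and 2.41 in mutants, and 2.93 over all embryos. The log2 fold change fitted with the batch term was 1.43, with an interval from -2.10 to 4.96. Its direction was not stable, at -0.51 with no batch term, -1.12 in batch 1 alone and -0.89 without mutant replicate 3. The TPM difference was -0.173 (exact permutation within batches, two-sided, p = 0.800, adjusted p = 0.800). Its effective length ranged from 418 to 2057 bases among controls, so that 4 counts gave 2.98 TPM in control replicate 5 and 9 counts gave 0.77 TPM in control replicate 6. For *Ankrd13b* and *Ankrd13d*, differences within these intervals were not detectable at this depth.

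Summed over the family, controls had 40.6 to 86.5 TPM with a median of 73.0, and mutants had 37.1 to 54.3 TPM with a median of 42.7. In batch 1 the controls had 86.5, 71.8 and 40.6 TPM and the mutants 54.3 and 54.1, and the groups overlapped. In batch 2 the controls had 75.2, 74.2 and 57.4 TPM and the mutants 42.7, 42.5 and 37.1, and the groups did not overlap. These sums include the values that selected the family. *Ankrd13a* supplied 19.1% to 33.8% of the family TPM in controls and at most 3.01% in mutants. *Ankrd13c* supplied 62.0% to 77.6% in controls and 91.9% to 99.3% in mutants. Without *Ankrd13a*, the paralogs summed to 51.6 ± 13.1 TPM in the 6 controls and 45.8 ± 8.02 TPM in the 5 mutants (mean ± SD). The batches lay in opposite directions, with means of 49.6 TPM in controls and 54.2 TPM in mutants of batch 1, and 53.7 and 40.2 TPM in batch 2. In batch 2 every mutant (36.6 to 42.7 TPM) lay below every control (46.4 to 57.7 TPM), the order that *Ankrd13c*, nearly all of this sum, already showed.

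**Figure D3:**
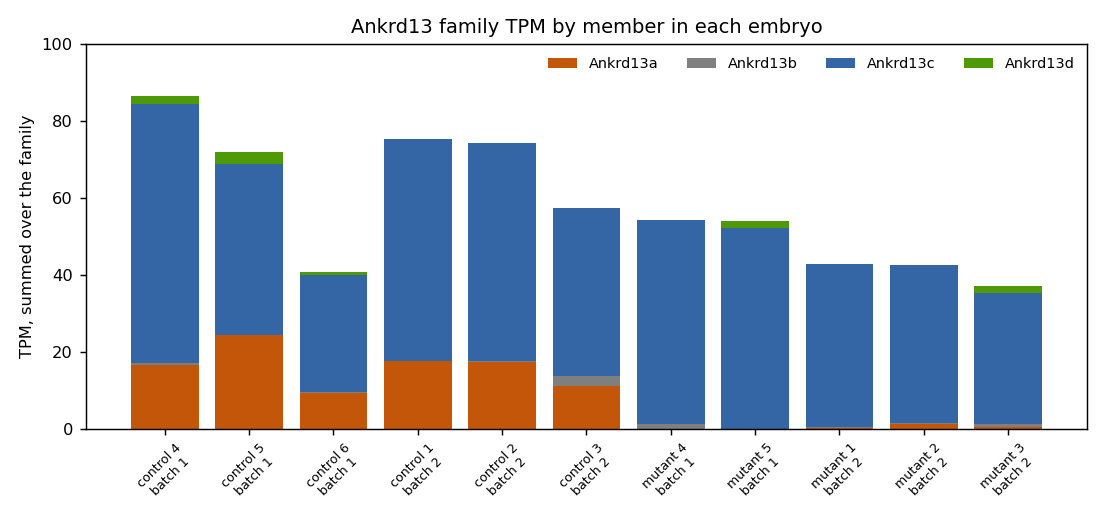
TPM summed over the family (y axis) in each embryo (x axis, group, replicate and batch), stacked by member in bars that start at 0. The *Ankrd13a* layer of the 6 control bars is missing or thin in the 5 mutant bars, and the *Ankrd13c* layer is the largest in every bar.

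The start of *Ankrd13a* is shared with other transcripts. *Git2*, which encodes a GTPase-activating protein for ARF proteins, lies on the minus strand, with its start 840 bases from that of *Ankrd13a* and 841 bases of overlap. The antisense gene *4930515G01Rik*, named here for its position after its values were seen, overlaps *Ankrd13a* by 307 bases. The libraries do not keep strand, so reads from the overlaps cannot be told apart. *Git2* averaged 106 ± 36.6 normalised counts (SD, n = 6) in controls. In mutants it averaged 70.5 ± 27.1 (SD, n = 5), and it was not called (log2 fold change -0.55 ± 0.33 (SE), DESeq2 adjusted p = 0.544). *Tchp*, a keratin-binding protein gene with the nearest start on the other side, averaged 13.0 ± 8.61 and 15.8 ± 7.74 normalised counts (adjusted p = 0.933, DESeq2). The bodies of *Git2* and *Tchp* both lie upstream of *Ankrd13a*, apart from the overlap. The first protein-coding gene past its 3′ end, *1500011B03Rik*, was named for its position with the data in view and averaged 5.70 ± 3.66 normalised counts in controls and 9.25 ± 7.15 in mutants, below the minimum for a call.

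No protein-coding gene with the nearest start to another member was called by DESeq2 or edgeR. *Git1*, the paralog of *Git2* and neighbour of *Ankrd13b*, averaged 39.4 ± 15.3 normalised counts in controls and 64.2 ± 27.5 in mutants (log2 fold change 0.57 ± 0.35 (SE), DESeq2 adjusted p = 0.554). Beside *Ankrd13c*, the log2 fold change was 0.21 ± 0.19 (SE) for *Cth*, an enzyme of cysteine synthesis, and -0.12 ± 0.17 for *Srsf11*, a splicing factor. Beside *Ankrd13d*, it was -0.14 ± 0.23 (SE) for *Grk2*, a kinase of G protein-coupled receptors. *Coro6* and *Ssh3* had mean normalised counts under 10. *Gm42611*, a gene model on the same strand that lies inside *Ankrd13c* (3407 bases of overlap) and was named for its position after its values were seen, averaged 40.4 ± 38.3 normalised counts in controls and 19.8 ± 14.8 in mutants (log2 fold change -0.93, interval -1.84 to -0.03, DESeq2 unadjusted p = 0.0427, adjusted p = 0.415). How reads were divided between it and *Ankrd13c* was not tested. The antisense gene *AC140073.1*, which overlaps *Ankrd13d*, was not analysed here.

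**Figure D4:**
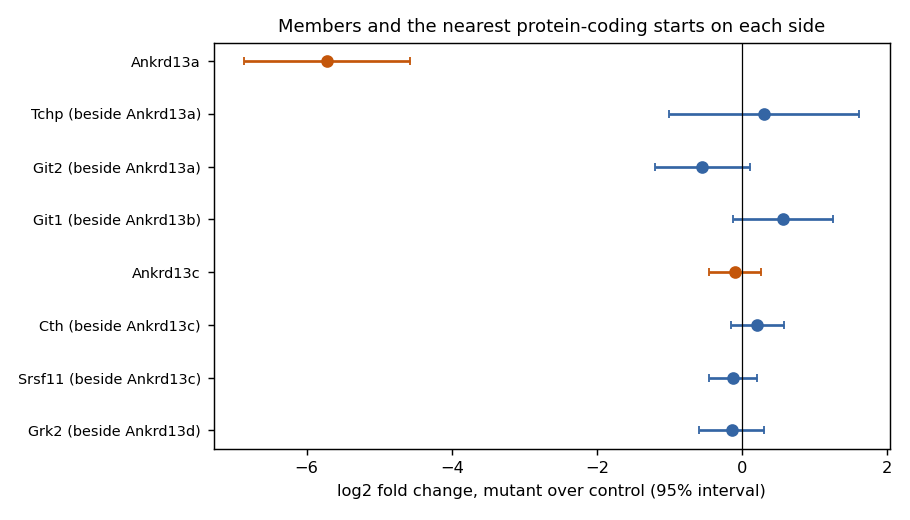
Log2 fold change (x axis, mutant over control) of the 2 members above the count minimum and of the genes with the nearest protein-coding starts and a mean normalised count above 10 (y axis), with points for DESeq2 estimates and lines for 95% intervals. The intervals of *Ankrd13c* and of the neighbours shown include 0, and *Ankrd13a* is drawn as a description of the values that selected the family.

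Promoter windows of the members were searched for the letters that the study changed in its gel shift probes for PRDM10, shown here because they define the pattern searched. The study itself derived its motif from ChIP-seq peaks. That full motif, the peaks and the list of bound genes were not used here. Letters that differ between the probes are in capitals.
WT probe: ctggcacagTGGTcgcGCCCggcccgcc
MUT probe: ctggcacagCAACcgcATTTggcccgcc

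The letters changed give TGGTNNNGCCC, which was found on either strand in 476 of 32851 RefSeq windows (1.45%; GRCm38.p6, windows spanning each start) and in 0 of 6 windows of the *Ankrd13* genes. A looser form that keeps fewer of these letters, TGGTNNNNNCC, which any match of the stricter form also satisfies, was in 13.8% of all windows and in 1 of the 6. That window belonged to *Ankrd13c*, with the match in capitals starting 26 bases before the RefSeq start.
*Ankrd13c*, chr3:157946965-157946994, plus strand: gatatccggTGGTGTCTTCCtacgtcgttc

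A match is a description of letters, and its absence says only that they are not in these windows. The 2 windows of *Ankrd13a* were rich in G and C (72.7% and 79.7%, against a median of 52.7% over all windows). So were those of *Ankrd13b* (60.7% and 83.7%) and *Ankrd13d* (69.0%), while that of *Ankrd13c* was at 51.0%.

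Genes of the pathway around the family were described from 5 lists of 58 genes, of which 49 passed the minimum count and received an adjusted p from DESeq2. DESeq2 called 0 of the 49 higher or lower, against 0.565% of all genes called higher and 0.881% called lower, and edgeR called 0. At an unadjusted p under 0.05, DESeq2 had 7 of the 49 (14.3%), against 11.9% of all genes. The median log2 fold change of the 49 was 0.03, and that of all genes was -0.0012.

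Of 15 endocytic adaptors that bind ubiquitin, 14 were tested, and 13 of these had a log2 fold change above 0, against 49.8% of all genes, with a median of 0.19. The 14 ranged from -0.23 to 0.80 and none was called. *Tom1l1*, an adaptor of the TOM1 family, averaged 53.9 ± 18.1 normalised counts in the 6 controls and 89.7 ± 27.4 in the 5 mutants (± SD; DESeq2 adjusted p = 0.378). *Eps15*, an endocytic adaptor with ubiquitin-interacting motifs, averaged 182 ± 68.1 and 258 ± 82.1 (adjusted p = 0.547). *Hgs*, the ESCRT-0 subunit that sorts ubiquitinated cargo, was not chosen by the naming rule and had a log2 fold change of 0.04 ± 0.22 (SE).

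Of 11 genes for ESCRT-I and endosomal deubiquitinases, 9 were tested, with a median log2 fold change of 0.27 and 5 values above 0. *Vps37b* and *Vps37a*, alternative ESCRT-I subunits, lay on opposite sides of 0, at 0.54 ± 0.27 (SE; DESeq2 adjusted p = 0.416) and -0.45 ± 0.25 (SE; adjusted p = 0.505). Of 12 genes for VCP and its cofactors, 11 were tested, with a median of -0.10 and 3 values above 0. *Nploc4*, which recruits VCP to ubiquitinated substrates, averaged 258 ± 44.6 normalised counts in controls and 187 ± 24.6 in mutants (DESeq2 adjusted p = 0.279). *Yod1*, a deubiquitinase of the VCP pathway, averaged 42.3 ± 60.9 and 15.1 ± 12.8 (adjusted p = 0.291), with controls from 5.21 to 164.

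Of 12 genes for EGFR and its ubiquitination, 7 were tested, and 6 of these had a log2 fold change below 0, against 50.2% of all genes, with a median of -0.13. *Egfr* itself had a mean normalised count of 1.74, below the minimum. *Grb2*, the adaptor that links activated receptors to downstream signalling, averaged 588 ± 85.1 normalised counts in controls and 743 ± 84.7 in mutants (DESeq2 adjusted p = 0.392). *Ube2d3*, a ubiquitin-conjugating enzyme, averaged 2879 ± 497 and 2380 ± 453 (adjusted p = 0.466). The 8 other genes with ubiquitin-interacting motifs were all tested, with a median of -0.20. Among them *Uimc1*, which binds ubiquitin at DNA breaks, had -0.50 ± 0.25 (SE; DESeq2 adjusted p = 0.416), and *Usp37*, a deubiquitinase, had -0.26 ± 0.15 (SE; adjusted p = 0.528).

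**Figure D5:**
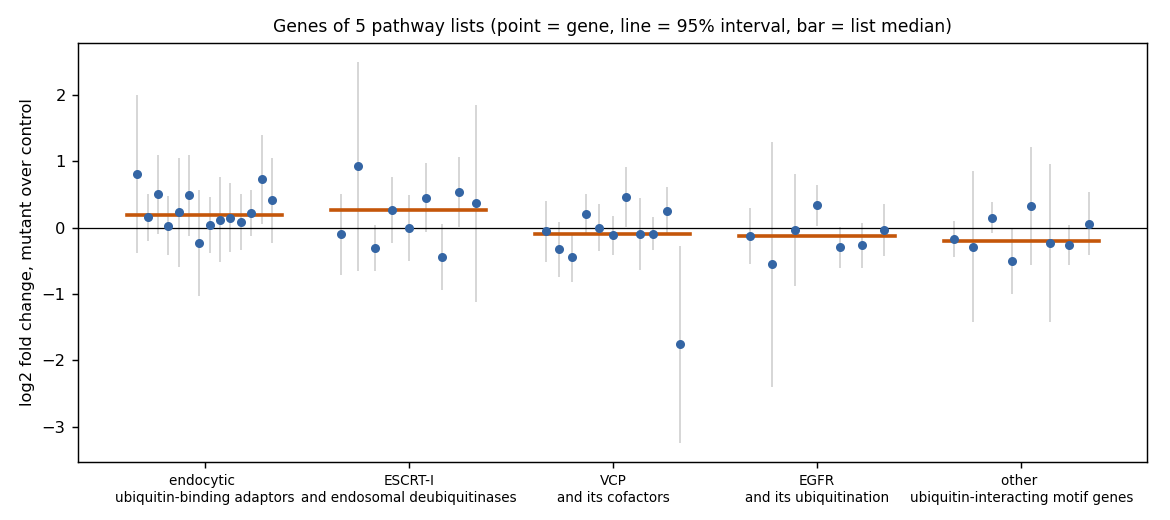
Log2 fold change (y axis, mutant over control) of the 49 tested genes in 5 pathway lists (x axis), with points for genes, grey lines for 95% intervals and bars for list medians. List medians lie between -0.20 and 0.27, and the lowest point is *Yod1* at -1.76.

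The genes whose profile was most like that of *Ankrd13a* were found among 10458 genes by the root mean square difference over 11 embryos, after dividing each normalised count by the gene's control mean in the same batch. Since these profiles include the fall in mutants, they are a description. The smallest differences were 0.169 for *Rnasek*, a small membrane protein gene, and 0.218 for *Eef1d*, a subunit of the translation elongation factor eEF1. They were 0.231 for *Cenpn*, a centromere protein gene, 0.239 for *Frat1*, a GSK3-binding protein gene, and 0.241 for *Ss18*, a subunit of the BAF chromatin remodelling complex. The median over all genes was 0.775. In mutants, *Rnasek* lay at 16.4% to 24.5% of its batch control mean, *Eef1d* at 8.69% to 22.1%, *Cenpn* at 17.4% to 37.6%, *Frat1* at 0% to 21.4% and *Ss18* at 4.63% to 23.9%. *Ankrd13a* lay at 0% to 7.51%.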

How the data were processed

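Single-embryo Smart-seq2 libraries (oligo-dT primed, Nextera XT, single-end, unstranded) from 6 control and 5 mutant embryos were analysed. Per the labels, the authors mapped reads to GRCm38.p6 with STAR (version 2.6.0c) and quantified genes with RSEM. The deposited tables hold per gene the expected count, which need not be whole, the TPM and the effective length. The authors' deposited comparison table (DESeq2 mean, log2 fold change, p-values) was not used. Groups and batches came from the labels.

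Expected counts were rounded and tested for a group term beside a batch term by the Wald test of DESeq2 (version 1.42.0), run in R (version 4.3.3). Fold changes were left unshrunken. P-values were adjusted (Benjamini-Hochberg) over the genes kept by the default DESeq2 filter on the mean count, so *Ankrd13b* and *Ankrd13d* had no adjusted p in the main fit. A call required an adjusted p under 0.05 and more than 10 normalised counts on average. DESeq2 was the main test because the study used it. The edgeR (version 4.0.16) quasi-likelihood test was run beside it. In a single set of counts simulated from the DESeq2 fit, DESeq2 made a larger share of false calls than edgeR. The share of false calls in these data was not measured. Intervals are 95% Wald intervals. TPM differences were compared by exact permutation within batches. Symbols (54079 of 54146 identifiers) and coordinates came from GENCODE release M21, and promoter windows from RefSeq. Probe sequences came from the study's oligonucleotide list.

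The alternatives were edgeR, limma (version 3.58.1) on log2(TPM + 1), TMM factors, no filter on the mean count, at least 10 counts in 5 libraries, no batch term, each batch alone, an effective-length offset and each embryo left out, and for TPM pseudocounts of 1 or 0.1 and no batch strata. The genes named were *Prdm10*, the members, the protein-coding gene with the nearest start on each side of each member's start, the 2 genes of each pathway list with the smallest p where none was called, and the 5 most like *Ankrd13a*. Marker genes, genes that overlap a member, *Egfr* and *Hgs* were named outside this rule after their values were seen, and *1500011B03Rik* for its position with the data in view. Members and lists were chosen with earlier results of these data known.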

Additional observations from a re-analysis of the deposited data

Results flagged for a closer look

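Values of the members and of *Git2* were searched for a single embryo far from the rest of its group, in 18 sets of values, and 2 were found. Chance gives such a flag in about 1 in 20 sets. *Ankrd13b* stood at 2.59 TPM in control replicate 3, against 0 to 0.58 TPM in the other controls, and this embryo held 15 expected counts of the gene. Its effective length there was 1067 bases, against 2216 to 2484 in the other controls, which raises the TPM. In mutant replicate 4, 14 counts gave 1.20 TPM. *Git2*, which overlaps the start of *Ankrd13a*, stood at 118 normalised counts in mutant replicate 1, against 53.4 to 62.5 in the other mutants.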

How the results depend on the processing

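*Ankrd13c* was not called under any of 20 alternatives (adjusted p from 0.847 to 1.00), and its log2 fold change was below 0 in all but batch 1 alone, where it was 0.21. Its range without 1 embryo each was -0.17 to -0.02. *Ankrd13a* was lower in mutants under all 20, with a log2 fold change of -3.67 by limma on log2(TPM + 1), where the pseudocount limits the value, -9.75 in batch 1 alone, which is no bound because both mutants are at 0, -4.72 in batch 2 alone, and -6.75 to -5.29 without 1 embryo each, the lowest without mutant replicate 2. *Ankrd13b* was at 1.36 in batch 1 alone and -1.04 in batch 2 alone, and ranged from -1.69 (without mutant replicate 4) to 1.15 (without control replicate 3) without 1 embryo each. *Ankrd13d* was at -0.51 with no batch term, -1.12 in batch 1 alone and 3.24 in batch 2 alone, and ranged from -0.89 (without mutant replicate 3) to 2.21 without 1 embryo each. EdgeR left out both of these low genes, as did the filter of 10 counts in 5 libraries. No pathway gene was called under any of the 20. The number of genes called over the whole table, 151, was 33 by edgeR, 22 by limma, 51 with no batch term, 78 in batch 1 alone and 48 in batch 2 alone, and 90 (without mutant replicate 2) to 265 (without control replicate 2) without 1 embryo each, with 91 without mutant replicate 5. The cause was not tested. No call on the TPM of the paralogs changed with the pseudocount or without strata, and edgeR changed no call on the interaction or the batch term. No paired analysis was possible because the labels do not number embryos in pairs.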
